A study of Homo sapiens with 12 samples.

Results

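The genes followed here are widely used as readouts of NRF2, the transcription factor of the oxidative stress response: GCLC, GCLM, TXN, TXNRD1, SRXN1, NQO1, PGD, ME1 and OSGIN1. They were picked by symbol, as 9 of the 57730 genes in the count table, and all 9 passed the filter on low counts. The choice was made with earlier results of these data known. RNA had been sequenced from LM3 cells, which the labels describe as lung-metastatic cells of the human breast cancer line MDA-MB-231, to study ACSL5, an enzyme that activates long-chain fatty acids by joining them to coenzyme A. The 12 libraries form 4 groups of 3. The shACSL5+PA cells carried a hairpin against ACSL5 and received palmitic acid, a saturated fatty acid. The shControl+PA cells carried a control hairpin and received palmitic acid. The shACSL5 cells carried the hairpin against ACSL5 without palmitic acid, and the shControl cells carried the control hairpin without it. All groups grew in DMEM with serum. How much palmitic acid was given, for how long and in which carrier, and how many hairpins or clones were used, was not in the sources used here. Palmitic acid and its carrier therefore cannot be told apart. The labels do not say that the replicates were separate cultures, so p-values measure the spread between these libraries, which may be technical. In bulk RNA, fewer cells of one state and less RNA per cell cannot be told apart.

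NRF2, encoded by NFE2L2, is held at low levels by KEAP1, which binds it and passes it to a CUL3 ubiquitin ligase. When reactive compounds modify KEAP1, or when the adaptor p62 (SQSTM1) binds it, NRF2 accumulates, pairs with a small MAF protein and binds antioxidant response elements near its target genes. The targets feed linked systems: glutamate-cysteine ligase (GCLC and GCLM) makes the precursor of glutathione, thioredoxin (TXN) and its reductase (TXNRD1) reduce protein disulfides, and malic enzyme (ME1) and 6-phosphogluconate dehydrogenase (PGD) supply the NADPH that these systems use. In cancer cells this programme is known for protecting against peroxides and other reactive compounds.

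The libraries held 16788694 to 21814751 counts each, and pairs of replicates correlated at 0.993 to 0.995 on the log2 scale. No library stood apart and no pair agreed within sampling noise. ACSL5 (chromosome 10, 112374018 to 112428380, plus strand, GRCh38) had 14.9, 13.3 and 17.6 CPM (counts scaled to library size and composition) in shACSL5+PA libraries, against 189, 194 and 189.6 CPM in shControl+PA libraries. Without palmitic acid it had 10.9, 10.2 and 12.5 CPM in shACSL5 libraries, against 142, 143 and 145 CPM in shControl libraries. Its level in hairpin cells was thus 8.01% of control with palmitic acid and 7.82% without, and the exact two-sided permutation test gave p = 0.1, the smallest that 3 against 3 libraries allow. The 8 mesenchymal markers of the cell line were present (VIM at group means of 2619 to 3952 CPM) and summed to 4110.1 to 4315 CPM in shACSL5+PA libraries, 5115 to 5283 in shControl+PA, 4382 to 4490 in shACSL5 and 5780.1 to 5966 in shControl libraries. Called at an edgeR adjusted p under 0.05, 7 of the 8 were lower and 1 higher with knockdown under palmitic acid. Without it 5 were lower. Palmitic acid left 4 lower in knockdown cells and 6 in control cells. Knockdown left 26.1% of all tested genes lower under palmitic acid and 32.6% without it (50.5% and 62.3% called in all). Palmitic acid left 9.78% lower in knockdown cells and 13.5% in control cells (21.9% and 28.7% called in all). Of 7 luminal and epithelial markers, ESR1, PGR and CDH1 were at or near 0 (group means of at most 0.294, 0.0183 and 0.0516 CPM), while ERBB2 (59.6 to 77.6 CPM), FOXA1 (6.67 to 7.82), GATA3 (6.31 to 8.01) and EPCAM (2.22 to 4.21) were detected. EPCAM was higher with knockdown (log2 0.65 with palmitic acid and 0.92 without it) and ERBB2 lower (-0.19 and -0.38). Of 6 immune markers, which summed to 45.3 to 54.0 CPM in shACSL5+PA, 35.7 to 37.1 in shControl+PA, 47.9 to 53.2 in shACSL5 and 35.0 to 37.8 in shControl libraries, CD68 made nearly all and was higher with knockdown (log2 0.45 in both media). CD3E was at 0 throughout, and PTPRC had at most 7 counts in a library, all in knockdown cells. Of 5 fibroblast markers, PDGFRB (4.55 to 14.0 CPM) was higher with knockdown and lower with palmitic acid, COL1A1 (9.18 to 13.4 CPM) was lower with palmitic acid, and DCN and LUM were at or near 0, as were the 4 erythroid markers. The 3 endothelial markers with a row summed to at most 1.94 CPM in a library. The part of these markers in the results below was not tested.

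The antioxidant response element has the core TGACNNNGC, where N is any base, and the stretches before the members' RefSeq starts that hold it are shown because NRF2 is known to act through this element. Both strands of the 250 bases before each RefSeq start (GRCh38.p14) were searched; all 9 members had such a window, TXNRD1 had 2, and 4 members held 5 matches in all. Capitals mark the core, and each stretch reads 5′ to 3′ on the strand of its gene. In ME1 and at the first TXNRD1 start the core lies on that strand; in PGD, in GCLM and at the second TXNRD1 start it lies on the other strand, so the capitals read as its reverse complement. The stretches are PGD chr1:10398837-10398896 (plus strand), GCLM chr1:93909446-93909475 (minus; 11 of its 30 bases lie in an annotated GCLM exon), ME1 chr6:83431155-83431214 (minus), TXNRD1 first start chr12:104215654-104215713 (plus) and TXNRD1 second start chr12:104286919-104286948 (plus; all 30 bases lie in an annotated TXNRD1 exon).
PGD: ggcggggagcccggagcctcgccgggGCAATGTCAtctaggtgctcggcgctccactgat
GCLM: ctacgatttctGCTTAGTCAttgtcttcca
ME1: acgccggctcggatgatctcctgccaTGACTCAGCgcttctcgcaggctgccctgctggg
TXNRD1, first start: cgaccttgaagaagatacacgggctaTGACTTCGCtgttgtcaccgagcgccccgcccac
TXNRD1, second start: agtggatttctGCTTTGTCAttctgactct
The cores began 201 bases before the start in PGD, 34 in GCLM, 137 in ME1, and 99 and 102 at the 2 starts of TXNRD1. No match was found in the windows of GCLC, TXN, NQO1, OSGIN1 and SRXN1, which says only that these letters are not in those 250 bases. Of all 27305 genes with a window, 13.217% held TGACNNNGC. The ME1 core, TGACTCAGC, was in the windows of 0.568% of genes and in no other member's.

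The 9 genes did not move as a block. Knockdown of ACSL5 split them: GCLM, ME1 and NQO1 were lower, and TXN and SRXN1 were higher, with and without palmitic acid, while TXNRD1 was lower with palmitic acid and higher without it. Palmitic acid raised 6 members in control cells and 5 in knockdown cells. Calls required an adjusted p under 0.05 in edgeR's quasi-likelihood test, with Benjamini-Hochberg adjustment over the 14706 genes tested. In shACSL5+PA against shControl+PA cells, 2 members were higher and 5 lower, where 24.4% and 26.1% of all tested genes were, 50.5% in all. In shACSL5 against shControl cells, 4 members were higher and 3 lower, against 29.7% and 32.6% of all genes, 62.3% in all. For palmitic acid in knockdown cells, 5 members were higher and 0 lower, against 12.1% and 9.78% of all genes, 21.9% in all; no member was lower at an unadjusted p under 0.05 in edgeR, and DESeq2 and limma-voom called 0 lower too. For palmitic acid in control cells, 6 members were higher and 1 lower, against 15.1% and 13.5% of all genes, 28.7% in all. With library size alone as the scaling, 35.9% of all calls in control cells were higher, against 52.8% here, and the members' counts were unchanged. The libraries of the 2 groups did not overlap for 7 of 9 members in shACSL5+PA against shControl+PA (56.9% of all genes), for 8 in shACSL5 against shControl (66.1%), for 5 in shACSL5+PA against shACSL5 (35.5%) and for 7 in shControl+PA against shControl (41.9%). The median log2 change over the 9 members was -0.13, 0.08, 0.09 and 0.25 in these comparisons in the same order, beside medians between -0.02 and 0.01 over all tested genes. Each group serves in 2 of the 4 comparisons, so their values are not independent. Because the members were chosen with earlier results of these data known, their counts beside the shares of all genes are description only.

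**Figure D1:**
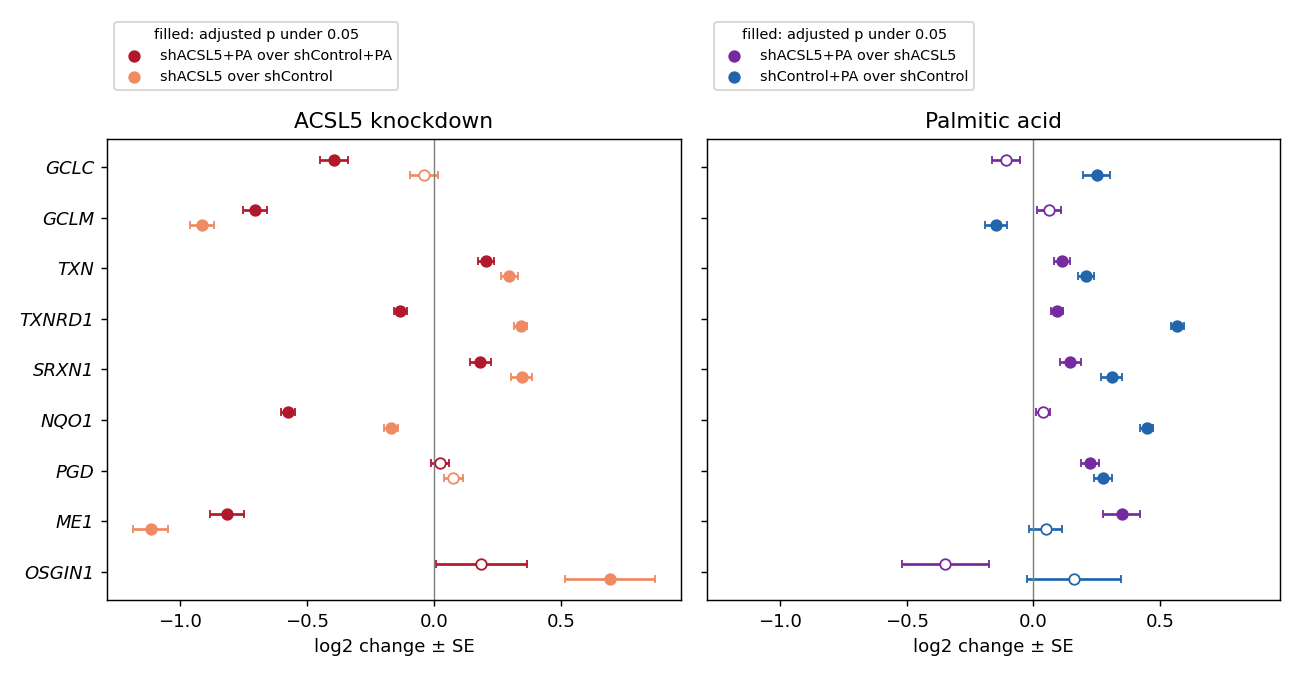
Change of each member (log2 ratio ± SE, x axis) with ACSL5 knockdown (left: shACSL5+PA over shControl+PA above shACSL5 over shControl) and with palmitic acid (right: shACSL5+PA over shACSL5 above shControl+PA over shControl); filled points have an adjusted p under 0.05. GCLM and ME1 lie furthest below 0 with knockdown, and TXNRD1 lies below 0 with palmitic acid and above 0 without it.

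Of the glutamate-cysteine ligase pair, GCLM was lower in knockdown cells in both media. Under palmitic acid, GCLC was lower in knockdown than in control cells. GCLM (modifier subunit, which raises the enzyme's affinity for glutamate; chromosome 1, 93885205 to 93909456, minus strand, GRCh38) had 111, 116 and 100.3 CPM in shACSL5+PA libraries and 172, 184 and 179 CPM in shControl+PA libraries. It had 107, 107 and 99.7 CPM in shACSL5 libraries and 196, 199 and 197 CPM in shControl libraries. The 6 knockdown libraries all lay below the 6 control libraries. Knockdown changed GCLM by -0.71 on the log2 scale with palmitic acid (SE 0.05, 0.613-fold, edgeR adjusted p = 1.95e-11) and by -0.91 without it (SE 0.05, 0.531-fold, edgeR adjusted p = 8.14e-14). Palmitic acid changed it by 0.06 in knockdown cells (SE 0.05, edgeR adjusted p = 0.399) and by -0.15 in control cells (SE 0.04, edgeR adjusted p = 0.0155). The call in control cells was lost without shControl replicate 2 (adjusted p = 0.0577) or without shControl+PA replicate 1 (adjusted p = 0.0941), and adjusted p ran from 0.00214 to 0.0941 over the alternatives.

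GCLC (catalytic subunit; chromosome 6, 53497341 to 53616970, minus strand) had 48.4, 44.1 and 42.7 CPM in shACSL5+PA libraries and 59.3, 59.2 and 59.2 CPM in shControl+PA libraries. It had 49.8, 48.9 and 46.9 CPM in shACSL5 libraries and 49.1, 51.7 and 48.8 CPM in shControl libraries. The shControl+PA libraries stood above all others, and the shACSL5 libraries overlapped both the shACSL5+PA and the shControl libraries. GCLC was 0.761-fold in shACSL5+PA relative to shControl+PA cells (log2 -0.39, SE 0.05, edgeR adjusted p = 2.29e-06). Without palmitic acid the knockdown difference was -0.04 on the log2 scale (SE 0.05, edgeR adjusted p = 0.573). Palmitic acid changed GCLC by -0.11 in knockdown cells (SE 0.06, edgeR adjusted p = 0.178) and by 0.25 in control cells (SE 0.05, 1.19-fold, edgeR adjusted p = 0.00128).

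Because both subunits come from the same libraries, their count ratio does not depend on library scaling. There were 2.43 ± 0.178 GCLM counts per GCLC count in shACSL5+PA libraries and 3.01 ± 0.102 in shControl+PA libraries (SD, n = 3 each). The ratio was 2.16 ± 0.0358 in shACSL5 libraries and 3.96 ± 0.0919 in shControl libraries (SD, n = 3 each). Neither pair of groups overlapped, nor did shACSL5+PA and shACSL5, or shControl+PA and shControl, and each exact two-sided permutation test gave p = 0.1, the smallest possible (0.133 after Benjamini-Hochberg adjustment over 8 ratio tests). In these libraries the ratio lay lower with knockdown in both media, higher with palmitic acid in knockdown cells and lower with it in control cells.

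**Figure D2:**
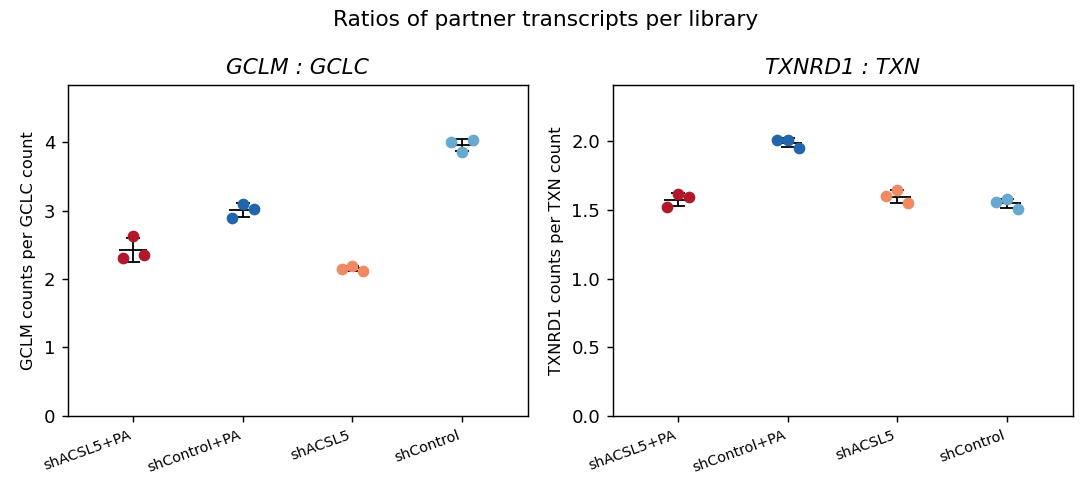
Counts of GCLM per count of GCLC (left) and of TXNRD1 per count of TXN (right) in each library (points), with group means and SD (bars, n = 3). GCLM per GCLC is highest in shControl libraries and lowest in shACSL5 libraries, and TXNRD1 per TXN is near 2 in shControl+PA libraries and near 1.6 in the other groups.

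In the thioredoxin system, TXN and SRXN1 were higher in knockdown cells and with palmitic acid, while TXNRD1 was highest in shControl+PA cells. TXN (chromosome 9, 110243811 to 110256640, minus strand) had 419, 398 and 393 CPM in shACSL5+PA libraries and 346, 344 and 359.9 CPM in shControl+PA libraries. It had 369, 367 and 382 CPM in shACSL5 libraries and 297, 306 and 307 CPM in shControl libraries. No 2 groups overlapped, with shACSL5+PA highest and shControl lowest. Knockdown raised TXN 1.15-fold with palmitic acid (log2 0.20, SE 0.03, edgeR adjusted p = 1.07e-05) and 1.23-fold without it (log2 0.30, SE 0.03, edgeR adjusted p = 2.75e-08). Palmitic acid raised it 1.08-fold in knockdown cells (log2 0.11, SE 0.03, edgeR adjusted p = 0.0127) and 1.15-fold in control cells (log2 0.21, SE 0.03, edgeR adjusted p = 3.92e-05). The knockdown-cell call was lost without shACSL5 replicate 1 (adjusted p = 0.0545) or shACSL5+PA replicate 1 (adjusted p = 0.0815), in a range of 0.00483 to 0.0815 over the alternatives.

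TXNRD1 encodes the selenoprotein that passes electrons from NADPH to thioredoxin (chromosome 12, 104215779 to 104350305, plus strand). It had 636, 642 and 628 CPM in shACSL5+PA libraries and 694, 691 and 702 CPM in shControl+PA libraries. It had 591, 604 and 592 CPM in shACSL5 libraries and 462, 482 and 464 CPM in shControl libraries. The 4 groups did not overlap, and the control cells held both the highest and the lowest values. TXNRD1 was 0.913-fold in shACSL5+PA relative to shControl+PA cells (log2 -0.13, SE 0.03, edgeR adjusted p = 0.000151) and 1.27-fold in shACSL5 relative to shControl cells (log2 0.34, SE 0.03, edgeR adjusted p = 7.84e-11). Palmitic acid raised it 1.07-fold in knockdown cells (log2 0.09, SE 0.03, edgeR adjusted p = 0.0113) and 1.48-fold in control cells (log2 0.57, SE 0.03, edgeR adjusted p = 1.99e-13). The call in knockdown cells was lost without shACSL5 replicate 1 (adjusted p = 0.0510) or shACSL5+PA replicate 2 (adjusted p = 0.0508), in a range of 0.00270 to 0.0510. There were 1.58 ± 0.0508 TXNRD1 counts per TXN count in shACSL5+PA libraries and 1.99 ± 0.0335 in shControl+PA libraries (SD, n = 3 each; exact permutation p = 0.1, 0.133 adjusted). The ratio was 1.60 ± 0.0461 in shACSL5 libraries and 1.55 ± 0.0347 in shControl libraries, which overlapped (SD, n = 3 each; exact permutation p = 0.3, 0.343 adjusted). With palmitic acid against without it, the exact permutation test of this ratio gave p = 0.6 in knockdown cells and p = 0.1 in control cells (0.6 and 0.133 adjusted).

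SRXN1, sulfiredoxin, which restores peroxiredoxins after overoxidation, had the same order of group means as TXN (chromosome 20, 646615 to 653370, minus strand). It had 101, 107 and 102 CPM in shACSL5+PA libraries and 89.1, 92.1 and 91.0 CPM in shControl+PA libraries. It had 93.0, 92.5 and 93.9 CPM in shACSL5 libraries and 72.0, 72.3 and 75.4 CPM in shControl libraries. Neither the knockdown pairs nor the palmitic acid pairs overlapped. Knockdown raised it 1.14-fold with palmitic acid (log2 0.18, SE 0.04, edgeR adjusted p = 0.000626) and 1.27-fold without it (log2 0.35, SE 0.04, edgeR adjusted p = 1.65e-07). Palmitic acid raised it 1.11-fold in knockdown cells (log2 0.15, SE 0.04, edgeR adjusted p = 0.0119) and 1.24-fold in control cells (log2 0.31, SE 0.04, edgeR adjusted p = 6.97e-06). Without shACSL5+PA replicate 2 the call in knockdown cells was lost (adjusted p = 0.0710, in a range of 0.0107 to 0.0710). In GENCODE 29, 84.952% of SRXN1's exon bases also belong to AL121758.1 on the same strand, so its reads cannot be assigned to one of the 2 genes with certainty.

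**Figure D3:**
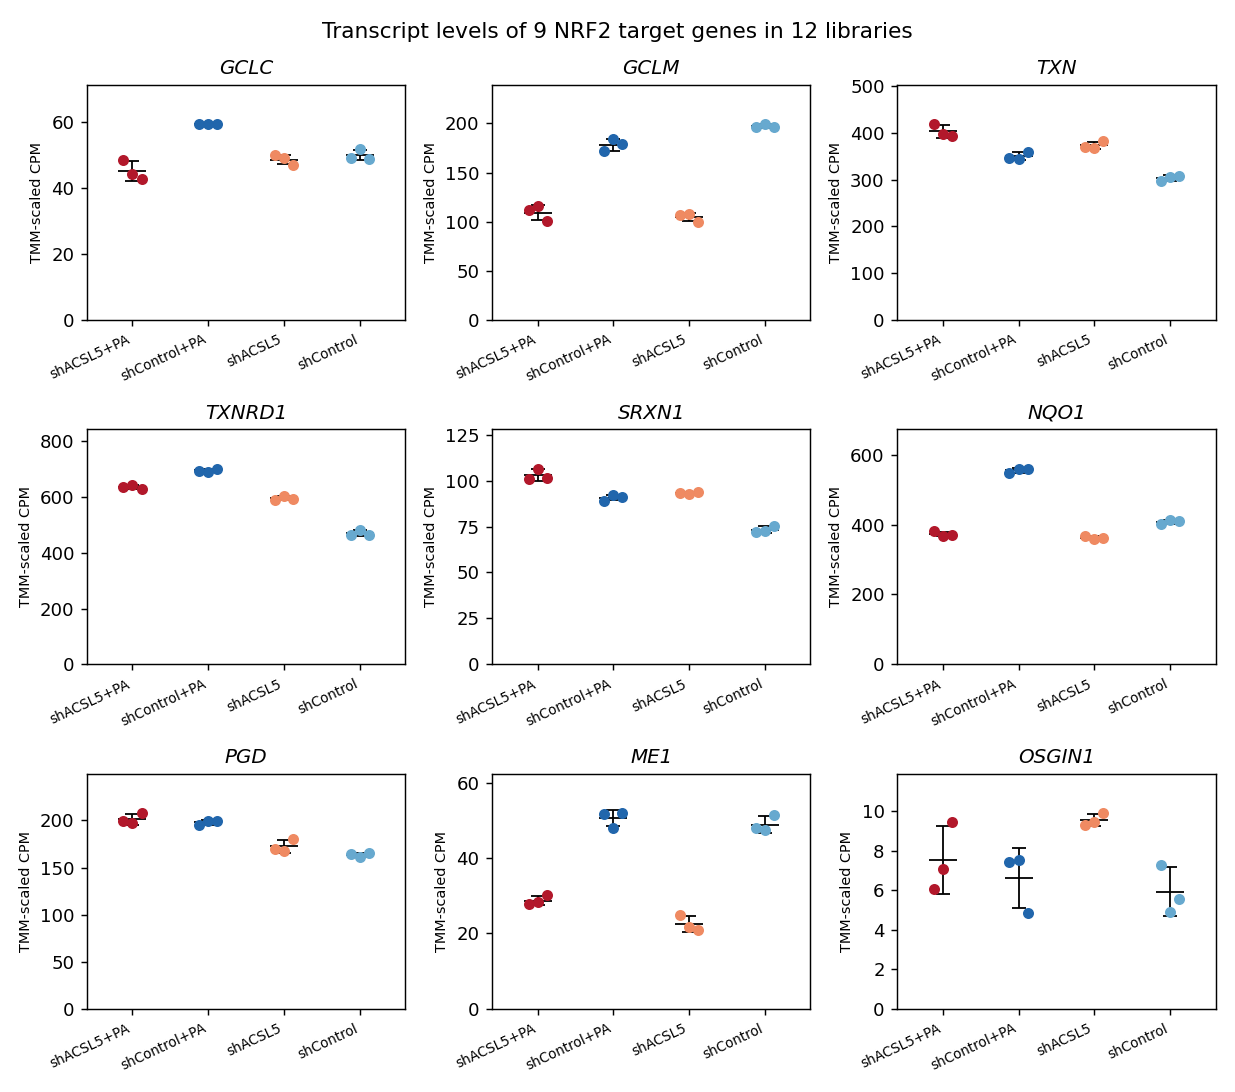
Level of each member (CPM scaled for library composition, y axis from 0) in each of the 12 libraries, as points with the group mean and SD (bars, n = 3). GCLC, NQO1 and TXNRD1 are highest in shControl+PA libraries, TXN and SRXN1 in shACSL5+PA libraries, and GCLM in shControl libraries.

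NQO1, which reduces quinones to hydroquinones and is among the most used NRF2 targets, was lower in knockdown cells and was raised by palmitic acid in control cells. It lies on chromosome 16, 69706996 to 69726951, minus strand. It had 381, 368 and 371 CPM in shACSL5+PA libraries and 548, 559 and 561 CPM in shControl+PA libraries. It had 369, 360.2 and 360.3 CPM in shACSL5 libraries and 402, 412 and 410.1 CPM in shControl libraries. The shControl+PA libraries stood far above the rest, and the knockdown libraries with and without palmitic acid overlapped. NQO1 was 0.671-fold in shACSL5+PA relative to shControl+PA cells (log2 -0.58, SE 0.03, edgeR adjusted p = 8.43e-14) and 0.890-fold in shACSL5 relative to shControl cells (log2 -0.17, SE 0.03, edgeR adjusted p = 1.28e-05). Palmitic acid changed it by 0.04 on the log2 scale in knockdown cells (SE 0.03, edgeR adjusted p = 0.355) and raised it 1.36-fold in control cells (log2 0.45, SE 0.03, edgeR adjusted p = 3.72e-11). In GENCODE 29, 17.671% of its exon bases overlap AC092115.2 on the opposite strand.

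The NADPH suppliers differed from each other. ME1, the cytosolic malic enzyme (chromosome 6, 83210389 to 83431071, minus strand), had 27.7, 28.3 and 30.2 CPM in shACSL5+PA libraries and 51.6, 48.1 and 51.9 CPM in shControl+PA libraries. It had 24.9, 21.8 and 20.8 CPM in shACSL5 libraries and 47.9, 47.3 and 51.4 CPM in shControl libraries. The knockdown libraries lay far below all control libraries. ME1 was 0.568-fold in shACSL5+PA relative to shControl+PA cells (log2 -0.82, SE 0.07, edgeR adjusted p = 9.36e-10) and 0.461-fold in shACSL5 relative to shControl cells (log2 -1.12, SE 0.07, edgeR adjusted p = 2.97e-12). Palmitic acid raised it 1.27-fold in knockdown cells (log2 0.35, SE 0.07, edgeR adjusted p = 0.00133), where the groups did not overlap. In control cells, where they did, its change was 0.05 on the log2 scale (SE 0.06, edgeR adjusted p = 0.629).

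PGD, an enzyme of the oxidative pentose phosphate pathway (chromosome 1, 10398592 to 10420144, plus strand), had 199, 197 and 208 CPM in shACSL5+PA libraries and 195, 199.8 and 199 CPM in shControl+PA libraries. It had 169, 168 and 181 CPM in shACSL5 libraries and 164, 161 and 166 CPM in shControl libraries. It was higher with palmitic acid in both kinds of cells, with no overlap, while the knockdown and control libraries under palmitic acid overlapped. Palmitic acid raised PGD 1.17-fold in knockdown cells (log2 0.22, SE 0.04, edgeR adjusted p = 0.000105) and 1.21-fold in control cells (log2 0.27, SE 0.04, edgeR adjusted p = 5.34e-06). The knockdown difference was 0.02 with palmitic acid (SE 0.04, edgeR adjusted p = 0.595) and 0.08 without it (SE 0.04, edgeR adjusted p = 0.0712). The difference without palmitic acid was called with relative log expression scaling (adjusted p = 0.0263), DESeq2 (adjusted p = 0.0220), a fit of the 2 groups alone (adjusted p = 0.0341) and without shACSL5 replicate 2 (adjusted p = 0.0432), in a range of 0.0220 to 0.334.

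OSGIN1, a growth inhibitor induced by oxidative stress (chromosome 16, 83948282 to 83966332, plus strand), had the fewest counts of the 9, at 89 to 203 per library. It had 6.07, 7.08 and 9.46 CPM in shACSL5+PA libraries and 7.43, 7.53 and 4.85 CPM in shControl+PA libraries. It had 9.30, 9.48 and 9.91 CPM in shACSL5 libraries and 7.29, 4.89 and 5.58 CPM in shControl libraries. The shACSL5 libraries lay above the shControl libraries, and the other pairs overlapped. OSGIN1 was 1.62-fold in shACSL5 relative to shControl cells (log2 0.69, SE 0.18, edgeR adjusted p = 0.00169). With palmitic acid the knockdown difference was 0.19 (SE 0.18, edgeR adjusted p = 0.409), and it was -0.01 without shACSL5+PA replicate 3 (adjusted p = 0.981, in a range of 0.173 to 0.984 over the alternatives). Palmitic acid gave -0.35 in knockdown cells (SE 0.17, edgeR adjusted p = 0.161) and 0.16 in control cells (SE 0.18, edgeR adjusted p = 0.566). The value in knockdown cells was called without shACSL5+PA replicate 3 (-0.54, adjusted p = 0.0397, in a range of 0.0397 to 0.488).

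Divided by exon length in GENCODE 29, levels spread from TXN at the top to OSGIN1 at the bottom in all 4 groups. TXN had 353 ± 11.9 CPM per kilobase in shACSL5+PA libraries, 306 ± 7.59 in shControl+PA, 327 ± 6.88 in shACSL5 and 266 ± 5.08 in shControl libraries (SD, n = 3 each). NQO1 came next at 115 ± 2.06, 171 ± 2.03, 112 ± 1.50 and 125 ± 1.72 CPM per kilobase in those groups, then TXNRD1 at 94.7 ± 1.04, 104 ± 0.814, 88.8 ± 1.06 and 70.0 ± 1.65. PGD followed at group means of 55.1 to 67.9 CPM per kilobase. The next 2 places changed hands. SRXN1 stood above GCLM in shACSL5+PA cells (38.2 ± 1.13 against 20.2 ± 1.48 CPM per kilobase) and in shACSL5 cells (34.5 ± 0.265 against 19.3 ± 0.813). In shControl+PA cells they did not differ beyond their spread (33.6 ± 0.560 against 32.9 ± 1.10), and in shControl cells GCLM was above (36.4 ± 0.301, against 27.1 ± 0.701 for SRXN1). SRXN1's level carries the overlap given above. ME1 had group means of 6.67 to 15.0 CPM per kilobase, GCLC 5.21 to 6.85 and OSGIN1 1.71 to 2.76. Apart from GCLM and SRXN1 in shControl+PA cells, no neighbours in this order overlapped within 1 SD.

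The design also tests whether palmitic acid changed the members differently with and without the knockdown, through the interaction, in which the log2 response of control cells is subtracted from that of knockdown cells. The log2 response was lower in knockdown cells for TXNRD1, NQO1 and GCLC, and higher for ME1 and GCLM. These were 2 members called higher and 3 called lower, where 7.15% and 7.39% of all tested genes were, 14.5% in all (59.9% of all calls were higher with library size alone, against 49.2% here). TXNRD1 responded by 0.09 in knockdown cells and 0.57 in control cells (difference -0.47, SE 0.04, edgeR adjusted p = 1.19e-08). NQO1 responded by 0.04 in knockdown cells and 0.45 in control cells (difference -0.41, SE 0.04, edgeR adjusted p = 2.96e-07). GCLC responded by -0.11 in knockdown cells and 0.25 in control cells (difference -0.36, SE 0.08, edgeR adjusted p = 0.00301). Each of these 3 calls held in all 18 alternatives. GCLM responded by 0.06 in knockdown cells and -0.15 in control cells (difference 0.21, SE 0.07, edgeR adjusted p = 0.0332), and ME1 by 0.35 in knockdown cells and 0.05 in control cells (difference 0.30, SE 0.10, edgeR adjusted p = 0.0407). The GCLM call was lost in 8 of the 12 fits without 1 library (shControl 1, 2 or 3, shACSL5 3, shControl+PA 1 or 3, shACSL5+PA 1 or 2), with adjusted p from 0.00390 to 0.119. The ME1 call was lost with DESeq2 (adjusted p = 0.0533) and in 8 of the 12 fits without 1 library (shControl 1 or 3, shACSL5 2 or 3, shControl+PA 1 or 2, shACSL5+PA 2 or 3), with adjusted p from 0.0128 to 0.117.

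The differences for SRXN1 (-0.16, SE 0.06, edgeR adjusted p = 0.0624), TXN (-0.09, SE 0.05, edgeR adjusted p = 0.181), PGD (-0.05, SE 0.05, edgeR adjusted p = 0.555) and OSGIN1 (-0.51, SE 0.25, edgeR adjusted p = 0.198) were not called. That of SRXN1 was called with relative log expression scaling (adjusted p = 0.0436) and DESeq2 (adjusted p = 0.0493), in a range of 0.0436 to 0.147.

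**Figure D4:**
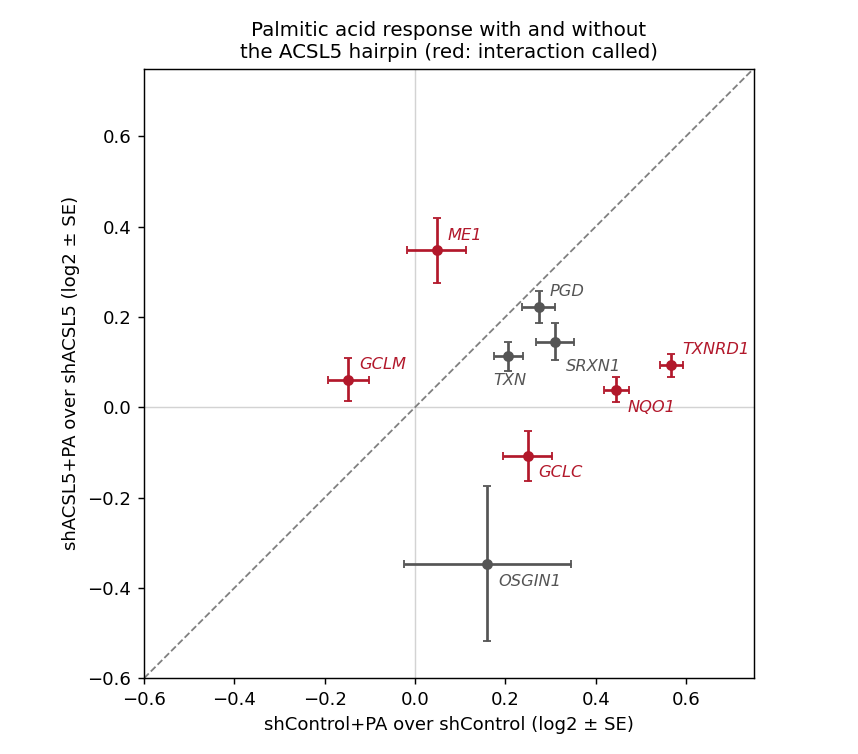
Response of each member to palmitic acid in knockdown cells (y axis, log2 ± SE) against that in control cells (x axis, log2 ± SE); the dashed line marks equal responses and red marks a called interaction. TXNRD1, NQO1 and GCLC lie below the line, ME1 and GCLM above it.

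Among 12 regulators of NRF2, KEAP1 and MAFG were higher in knockdown cells and NFE2L2, the gene of NRF2 itself, was lower. Knockdown with palmitic acid left 2 regulators higher and 4 lower, and knockdown without it 4 higher and 4 lower. Palmitic acid left 1 higher and 1 lower in knockdown cells, and 6 higher and 0 lower in control cells (1 was lower at an unadjusted p under 0.05 in edgeR, and DESeq2 and limma-voom called 0). Of all tested genes, 50.5% were called with knockdown under palmitic acid and 62.3% without it. With palmitic acid, 21.9% were called in knockdown cells and 28.7% in control cells. The counts of the lists below are to be read beside these shares too. NFE2L2, chosen for mention after its values were seen, had 87.1, 93.4 and 86.5 CPM in shACSL5+PA libraries and 124, 126 and 119 CPM in shControl+PA libraries. It had 82.9, 85.4 and 77.4 CPM in shACSL5 libraries and 119, 109 and 114 CPM in shControl libraries. The knockdown libraries lay below all control libraries, with changes of -0.46 with palmitic acid (SE 0.05, edgeR adjusted p = 2.25e-08) and -0.48 without it (SE 0.05, edgeR adjusted p = 7.97e-09). Its palmitic acid changes, 0.12 in knockdown cells (edgeR adjusted p = 0.0769) and 0.11 in control cells (edgeR adjusted p = 0.0894), were not called, and 20.907% of its exon bases overlap other genes.

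KEAP1, the repressor of NRF2, had 143, 143 and 145 CPM in shACSL5+PA libraries and 108, 98.3 and 102 CPM in shControl+PA libraries. It had 171, 163 and 172 CPM in shACSL5 libraries and 83.0, 91.5 and 90.9 CPM in shControl libraries. No 2 groups overlapped, and the knockdown libraries lay above the control libraries. Its log2 change was 0.48 with knockdown under palmitic acid and 0.93 without it (SE 0.04 each). Palmitic acid changed it by -0.23 in knockdown cells (SE 0.04) and 0.22 in control cells (SE 0.05), and the interaction was -0.45 (SE 0.06, edgeR adjusted p = 3.62e-05). SQSTM1, the KEAP1-binding adaptor, averaged 599 ± 14.2 CPM in shACSL5+PA, 668 ± 14.3 in shControl+PA, 488 ± 16.2 in shACSL5 and 324 ± 7.18 in shControl libraries (SD, n = 3 each). Like TXNRD1, it was lower with knockdown under palmitic acid (log2 -0.16, SE 0.03) and higher without (log2 0.59, SE 0.03); palmitic acid raised it by 0.30 in knockdown and 1.04 in control cells (SE 0.03 each; interaction -0.75, SE 0.04, edgeR adjusted p = 7.61e-11). The exons of SQSTM1 overlap genes on the opposite strand over 22.041% of their bases. MAFG, a small MAF partner of NRF2, averaged 146 ± 4.16 CPM in shACSL5+PA and 98.4 ± 1.38 in shControl+PA libraries (log2 0.57, SE 0.04; SD, n = 3 each). NFE2L1, a relative of NFE2L2, changed by 0.15 with palmitic acid in control cells (SE 0.03).

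**Figure D5:**
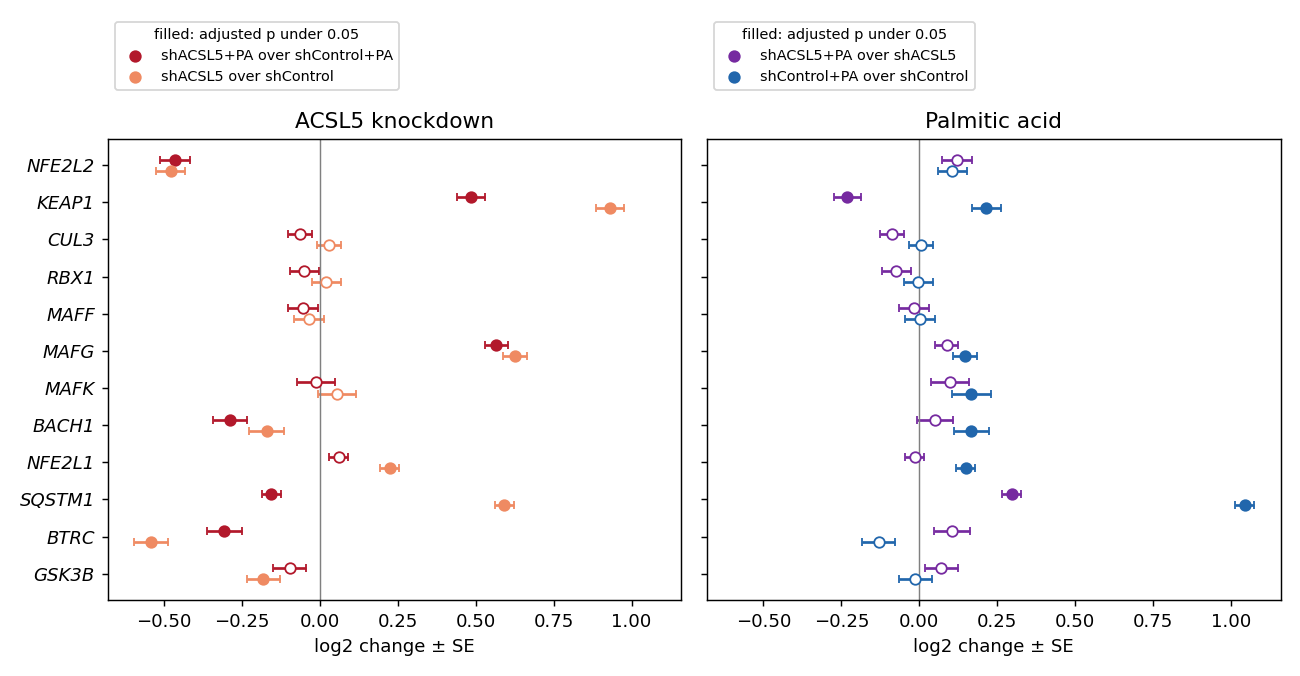
Change of the 12 NRF2 regulators (log2 ratio ± SE, x axis) with ACSL5 knockdown (left) and with palmitic acid (right), with palmitic acid or knockdown cells drawn above the other pair; filled points have an adjusted p under 0.05. NFE2L2 lies below 0 and KEAP1 and MAFG above 0 with knockdown, and SQSTM1 has the largest change with palmitic acid in control cells.

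Genes of cystine import and glutathione use moved in both directions with knockdown: 11 of 24 tested were higher and 10 lower, with as well as without palmitic acid. Of all tested genes, 50.5% were called with palmitic acid and 62.3% without it. SLC7A11, the cystine carrier, averaged 155 ± 10.2 CPM in shACSL5+PA and 282 ± 7.03 in shControl+PA libraries, and 140.1 ± 7.32 in shACSL5 and 229 ± 27.5 in shControl libraries (SD, n = 3 each). Its log2 changes were -0.86 with palmitic acid and -0.71 without it (SE 0.06 each). CHAC1, which degrades glutathione, was lower as well, at 4.78 ± 0.203 CPM in shACSL5+PA and 16.8 ± 1.45 in shControl+PA libraries (SD, n = 3 each; log2 -1.81, SE 0.13), and by -2.27 without palmitic acid (SE 0.14). Palmitic acid raised 9 of the 24 and lowered 0 in knockdown cells (21.9% of all tested genes called). At an unadjusted p under 0.05 in edgeR 1 was lower there, and DESeq2 and limma-voom called 0. In control cells palmitic acid raised 7 and lowered 3 (28.7% of all tested genes called). SLC3A2, the heavy chain of that carrier, rose by 0.29 in knockdown and 0.68 in control cells (SE 0.03 each). The microsomal glutathione transferase MGST1 rose by 0.32 in knockdown and 0.50 in control cells (SE 0.04 each).

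Of 19 other thioredoxin and peroxiredoxin genes, 6 were higher and 3 lower with knockdown under palmitic acid (50.5% of all tested genes called). Without it 9 were higher and 6 lower (62.3% of all called). SESN3, a sestrin, averaged 16.5 ± 1.56 CPM in shACSL5+PA and 43.5 ± 2.00 in shControl+PA libraries, and 13.6 ± 0.900 in shACSL5 and 56.2 ± 3.04 in shControl libraries (SD, n = 3 each; log2 -1.40 and -2.05, SE 0.08 each). TXNIP, which binds and inhibits thioredoxin, averaged 45.9 ± 3.21 CPM in shACSL5 and 16.4 ± 0.123 in shControl libraries (SD, n = 3 each; log2 1.48, SE 0.08). The peroxiredoxin PRDX6 rose by 0.33 with knockdown under palmitic acid and 0.44 without it (SE 0.03 each). Palmitic acid raised 3 and lowered 1 of the 19 in knockdown cells (21.9% of all tested genes called). In control cells it raised 10 and lowered 4 (28.7% of all called). The sestrin SESN2 rose by 0.85 in knockdown and 0.95 in control cells (SE 0.08 each), TXNDC12 by 0.22 in knockdown cells (SE 0.04) and PRDX1 by 0.23 in control cells (SE 0.03). Of their exon bases, 49.714% in TXNDC12 and 24.901% in PRDX1 overlap other genes.

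Of 16 other genes of NADPH supply, 3 were higher and 7 lower with knockdown under palmitic acid (50.5% of all tested genes called). Without it 4 were higher and 6 lower (62.3% of all called). IDH1, the cytosolic NADP isocitrate dehydrogenase, averaged 91.7 ± 3.25 CPM in shACSL5+PA and 168 ± 5.28 in shControl+PA libraries, and 76.1 ± 2.67 in shACSL5 and 199 ± 4.39 in shControl libraries (SD, n = 3 each; log2 -0.87 and -1.39, SE 0.04 each). RPIA, ribose-5-phosphate isomerase, was higher, at 57.9 ± 3.49 CPM in shACSL5+PA and 31.6 ± 2.03 in shControl+PA libraries (SD, n = 3 each; log2 0.88, SE 0.06), and by 1.18 without palmitic acid (SE 0.06). Palmitic acid raised 3 and lowered 3 of the 16 in knockdown cells (21.9% of all tested genes called). In control cells it raised 6 and lowered 4 (28.7% of all called). It changed IDH1 by 0.27 in knockdown cells and by -0.24 in control cells (SE 0.04 each; interaction 0.52, SE 0.06, edgeR adjusted p = 2.85e-06), and raised TKT, transketolase, by 0.31 in control cells (SE 0.03). The mitochondrial malic enzyme ME3 changed by -0.31 in knockdown and -0.45 in control cells (SE 0.06 each).

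Of 11 tested genes of quinone and carbonyl detoxification, 2 were higher and 5 lower with knockdown under palmitic acid (50.5% of all tested genes called). Without it 3 were higher and 5 lower (62.3% of all called). With knockdown, the aldo-keto reductase AKR1C3 changed by -1.15 with palmitic acid and -1.35 without it (SE 0.09 each). UGDH changed by -0.29 and -0.18, and AKR1A1 by 0.22 and 0.33, in the same order (SE 0.05 each). Palmitic acid raised 2 and lowered 2 of the 11 in knockdown cells (21.9% of all tested genes called). Among them were EPHX1 (0.36, SE 0.09) and AKR1B1 (-0.16, SE 0.04). The AKR1B1 call was lost without shACSL5+PA replicate 2 (adjusted p = 0.0657, in a range of 0.00219 to 0.0657). In control cells 1 gene, PIR, was higher (0.41, SE 0.12) and 0 were lower, where 28.7% of all tested genes were called. At an unadjusted p under 0.05 in edgeR 1 was lower, and DESeq2 and limma-voom called 0. The PIR call was lost without shControl replicate 1 (adjusted p = 0.0608, in a range of 0.00806 to 0.0608).

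Of 6 heme and iron genes, 1 was higher and 4 lower with knockdown under palmitic acid (50.5% of all tested genes called). Without it 2 were higher and 4 lower (62.3% of all called). FTL averaged 1382 ± 43.2 CPM in shACSL5+PA and 927 ± 3.95 in shControl+PA libraries, and 1268 ± 23.3 in shACSL5 and 509 ± 13.1 in shControl libraries (SD, n = 3 each; log2 0.58 and 1.32, SE 0.03 each). FTH1 averaged 791 ± 16.8 CPM in shACSL5+PA and 982 ± 5.55 in shControl+PA libraries, and 659 ± 16.4 in shACSL5 and 601 ± 23.9 in shControl libraries (SD, n = 3 each; log2 -0.31 and 0.13, SE 0.03 each). Both ferritin chains were thus higher with knockdown without palmitic acid, and with it FTL was higher and FTH1 lower. Palmitic acid raised FTL by 0.12 in knockdown and 0.87 in control cells, and FTH1 by 0.26 in knockdown and 0.71 in control cells (SE 0.03 each). Of FTH1's exon bases 62.414% overlap BEST1 on the opposite strand, and 18.335% of the 50-base stretches of FTL also occur in pseudogenes, so both levels are uncertain. BLVRA, biliverdin reductase, changed by -0.52 with knockdown under palmitic acid and -0.74 without it (SE 0.06 each).

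Of the 3 superoxide and peroxide enzymes, 2 were higher and 1 lower in each knockdown comparison. Of all tested genes, 50.5% were called with palmitic acid and 62.3% without it. SOD1 was higher with knockdown (log2 0.36 with palmitic acid and 0.44 without it, SE 0.04 each) and CAT, catalase, was lower (-0.29 with palmitic acid, SE 0.05, and -0.50 without it, SE 0.06). CAT rose with palmitic acid by 0.43 in knockdown and 0.21 in control cells (SE 0.06 each). SOD1 rose by 0.12 in control cells (SE 0.04), a call that was lost with library size alone (adjusted p = 0.166), without shControl replicate 1 (adjusted p = 0.0887) or without shControl+PA replicate 3 (adjusted p = 0.0881), in a range of 0.00742 to 0.166. Over all 91 tested genes of these lists, 27 were higher and 34 lower with knockdown under palmitic acid, and 35 higher and 36 lower without it, beside the shares of all genes given above. Palmitic acid raised 22 and lowered 7 in knockdown cells (21.9% of all tested genes called). In control cells it raised 35 and lowered 12 (28.7% of all called).

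Some genes outside the lists had patterns over the 4 groups close to those of the members. Likeness was the root mean square difference between the log2 levels of a gene and a member in 3 groups relative to shControl, over genes with a mean of at least 5 CPM. The closest were UROD (0.00298) and TMEM33 (0.00761) for TXN, RPL6 (0.0125) and PUM3 (0.0174) for SRXN1, and PRKAG1 (0.0148) and DDX11 (0.0216) for PGD. ASPM (0.0254) and WDR72 (0.0326) were closest to GCLM, ARID5B (0.0289) and KCTD11 (0.0353) to GCLC, and ABCA5 (0.0279) and DCBLD2 (0.0321) to ME1. CSKMT (0.0248) and C8orf82 (0.0359) were closest to OSGIN1. The closest genes lay further off for TXNRD1 (MAP10 at 0.0636 and PTGES at 0.0673) and for NQO1 (ANKRD18A at 0.0751). These values describe 12 libraries and were not tested.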

How the data were processed

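Polyadenylated RNA of 12 libraries was sequenced, and the authors deposited unnormalized read counts for each gene. The submitters' processing notes name HISAT2 2.1.0, featureCounts and fastp 0.22.0 with the GRCh38 build; they name no annotation release and no strand setting. Groups came from the sample titles. Genes passing filterByExpr (14706 of 57730) were scaled with TMM factors and fitted in 1 model of 4 groups by the quasi-likelihood test of edgeR 4.0.16 (R 4.3.3), and p-values were adjusted over all genes tested by the Benjamini-Hochberg method, with calls under 0.05. The SE is the absolute log2 change divided by the square root of F. Coordinates, exon lengths and overlaps are from GENCODE 29, which held 52269 of the 57730 identifiers, and promoters from RefSeq. The members and gene lists were chosen with earlier results of these data known. The named list genes were, per list and comparison of 2 groups, the 2 called genes with the smallest p. KEAP1, SQSTM1, FTH1, IDH1, NFE2L2, TXNIP, PRDX6, BLVRA, UGDH and AKR1A1 were also given in comparisons, or in the interaction, where this rule did not pick them. For TXNIP, PRDX6, BLVRA, UGDH and AKR1A1 those values were not compared under alternatives. Alternatives were other scaling (relative log expression, library size alone), no low-count filter, DESeq2 1.42.0, limma-voom 3.58.1, a replicate block, the 2 compared groups alone and leaving out each library. A gene chosen by the likeness rule and a marker are not reported here.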

Additional observations from a re-analysis of the deposited data

Results flagged for a closer look

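The response to palmitic acid differed between knockdown and control cells for 5 of the 9 members, by edgeR's test of the interaction (log2, with the control-cell response subtracted from that of knockdown cells). The difference was -0.47 for TXNRD1 (SE 0.04, adjusted p = 1.19e-08), -0.41 for NQO1 (SE 0.04, adjusted p = 2.96e-07) and -0.36 for GCLC (SE 0.08, adjusted p = 0.00301). It was 0.21 for GCLM (SE 0.07, adjusted p = 0.0332) and 0.30 for ME1 (SE 0.10, adjusted p = 0.0407). These 2 calls were each lost in most fits without 1 library, and that of ME1 also with DESeq2 (adjusted p = 0.0533). Of all tested genes, 14.5% had a called interaction.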

How the results depend on the processing

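Of 846 values of the members under alternatives, 813 kept their direction and side of the threshold, 24 lost a call, 7 gained one and 2 turned sign; of 1212 values of the other named genes, 1207 kept both and 5 lost a call. The values that turned sign were not called: ME1 with palmitic acid in control cells with library size alone (-0.000399, adjusted p = 0.998, in a range of 0.422 to 0.998), and OSGIN1 with knockdown under palmitic acid without shACSL5+PA replicate 3 (-0.00646, adjusted p = 0.981, in a range of 0.173 to 0.984; its values without 1 library ran from -0.00646 to 0.322). With DESeq2, 1 member had a higher interaction. Leaving out 1 library at a time gave 0 to 2 members with a higher interaction, 0 to 1 lower with palmitic acid in control cells, and 3 to 5 higher and 0 to 1 lower with palmitic acid in knockdown cells. The cause was not tested. Library size alone gave 35.9% of calls higher for palmitic acid in control cells, against 52.8% with TMM, and 59.9% for the interaction, against 49.2% with TMM. Same-numbered libraries of different groups deviated together at r of -0.0645 to 0.191, over 0.1 in 4 of 18 pairs. Differently numbered libraries ran from -0.170 to 0.164, over 0.1 in 3 of 36 pairs. The libraries shControl-3, shACSL5-3 and shACSL5+PA-3 deviated together at 0.141 to 0.191, while shControl+PA-3 had -0.0586 to -0.0400 with them. Whether a replicate number marks a shared batch was not tested. With the replicate block, 7489 genes were called for knockdown with palmitic acid, 9197 without it, 3363 for palmitic acid in knockdown cells, 4302 in control cells and 2261 for the interaction, and the counts of members called were 2 higher and 5 lower, 4 and 3, 5 and 0, 6 and 1, and 2 and 3. Depth limits OSGIN1, at 89 to 203 counts per library, and so does the overlap of 13.902% of its exon bases with AC009119.2 on the same strand.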
